A study of Mus musculus with 12 samples.

Results

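Antigen presentation by major histocompatibility complex (MHC) molecules was followed through 10 genes of the mouse brain: the class I heavy chain genes H2-K1 and H2-D1, the class I light chain gene B2m, the class II chain genes H2-Aa, H2-Ab1 and H2-Eb1, the invariant chain gene Cd74, the peptide transporter gene Tap1 and the immunoproteasome genes Psmb8 and Psmb9. They were chosen as known genes of the pathway, with earlier results of these data known, and were found by symbol among 43629 gene IDs. All 10 were read in every one of the 12 libraries. Each passed the filter on low counts, which kept 19145 genes, so none of the 10 is left out below.

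Mice of the collagen domain group had received, as newborns, an injection into the brain ventricles of rAAV, an adeno-associated virus used to deliver genes, that encoded the collagen domain construct. Mice of the PBS group had received phosphate-buffered saline at the same age and place. C1qTNF3, whose collagen domain is named in the series title, is a secreted relative of complement C1q and adiponectin. Brains were taken at 3 months, frozen as a hemibrain and pulverised, with 3 libraries for each combination of collagen domain or PBS with female or male. The labels give no strain, no promoter for the construct and no statement that each library is a separate mouse, and with no group given an empty rAAV, vector and construct cannot be told apart.

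Class I molecules, a heavy chain held by beta-2 microglobulin, show peptides from inside the cell to CD8 T cells. The proteasome cuts these peptides, with Psmb8 and Psmb9 as the subunits that interferon adds to it, and the transporter of which Tap1 is 1 chain carries them into the endoplasmic reticulum. Class II molecules, an alpha and a beta chain guided by the invariant chain Cd74, show peptides from outside the cell to CD4 T cells. In healthy brain most class II RNA comes from macrophages at the borders, dendritic cells and few microglia, while class I RNA is found at a low level in many cell types, and interferon gamma raises both. In bulk tissue, fewer cells of a type and less RNA per cell cannot be told apart.

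Libraries held 39272127 to 52323985 counted reads. The reads went against a label in 5 of the 12 libraries. For treatment, read on C1qtnf3, the libraries labelled collagen domain female 1 and female 3 held 23 and 8 reads and those labelled PBS female 2 and male 1 held 1071 and 2675, where the other collagen domain libraries held 2612 or more and the other PBS libraries 28 or fewer. For sex, read on Xist and Ddx3y, 4 libraries went against their labels: those labelled collagen domain female 1 and male 3, and those labelled PBS female 2 and male 1. Differences by label are therefore set beside those of the 7 libraries whose reads went with both labels: collagen domain female 2, male 1 and male 2, and PBS female 1, female 3, male 2 and male 3. The tissue was labelled forebrain, but Gabra6, a receptor subunit of cerebellar granule cells, had 3096 to 6374 reads in 5 libraries (collagen domain female 2 and male 2, PBS female 2, female 3 and male 3) and at most 45 in the other 7.

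The upstream sequences of the class I and class II genes are shown because these gene families are known to share promoter elements, among them an inverted CCAAT box (the Y box, bound by NF-Y) and a TGACG half-site of the X2 box, through which the coactivators Nlrc5 (class I) and Ciita (class II) act. RefSeq promoters (GRCm38.p6) matched 8 of the 10 genes, and H2-Ab1 and Cd74 were not matched. The 250 bases before the annotated start follow for 6 of them, 5′ to 3′ on the gene's strand, with every match to a searched motif in capitals.
H2-K1 (chr17:34000348-34000597, minus strand): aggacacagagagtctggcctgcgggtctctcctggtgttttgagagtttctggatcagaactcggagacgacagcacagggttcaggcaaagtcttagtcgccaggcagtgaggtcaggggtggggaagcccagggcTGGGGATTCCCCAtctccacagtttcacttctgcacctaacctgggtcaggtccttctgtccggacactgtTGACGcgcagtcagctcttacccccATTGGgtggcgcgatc
H2-D1 (chr17:35262844-35263093, plus strand): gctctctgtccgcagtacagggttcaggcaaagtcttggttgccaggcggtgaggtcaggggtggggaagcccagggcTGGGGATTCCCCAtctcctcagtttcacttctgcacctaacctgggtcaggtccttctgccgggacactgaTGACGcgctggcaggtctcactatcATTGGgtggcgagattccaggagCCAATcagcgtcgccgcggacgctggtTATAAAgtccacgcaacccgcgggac
B2m (chr2:122147437-122147686, plus strand): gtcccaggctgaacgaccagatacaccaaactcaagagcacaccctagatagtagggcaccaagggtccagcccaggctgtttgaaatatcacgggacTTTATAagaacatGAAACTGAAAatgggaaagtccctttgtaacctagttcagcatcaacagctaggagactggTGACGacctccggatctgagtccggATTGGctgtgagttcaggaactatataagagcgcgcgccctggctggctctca
H2-Aa (chr17:34287824-34288073, minus strand): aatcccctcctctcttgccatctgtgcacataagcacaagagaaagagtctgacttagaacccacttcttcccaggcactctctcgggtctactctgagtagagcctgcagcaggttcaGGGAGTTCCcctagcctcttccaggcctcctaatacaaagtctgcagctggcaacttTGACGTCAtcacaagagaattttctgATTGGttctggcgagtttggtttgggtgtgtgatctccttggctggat
H2-Eb1 (chr17:34305617-34305866, plus strand): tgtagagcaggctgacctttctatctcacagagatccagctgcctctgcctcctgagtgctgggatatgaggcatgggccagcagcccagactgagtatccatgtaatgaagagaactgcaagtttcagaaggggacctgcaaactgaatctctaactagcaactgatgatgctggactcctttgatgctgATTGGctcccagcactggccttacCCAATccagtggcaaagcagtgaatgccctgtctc
Tap1 (chr17:34187306-34187555, plus strand): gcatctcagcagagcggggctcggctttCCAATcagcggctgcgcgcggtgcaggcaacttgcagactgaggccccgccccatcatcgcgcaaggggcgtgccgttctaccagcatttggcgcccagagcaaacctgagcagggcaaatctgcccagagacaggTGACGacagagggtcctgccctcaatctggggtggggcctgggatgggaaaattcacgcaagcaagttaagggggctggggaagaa

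In these windows, CCAAT was found on either strand in 7 of the 8 matched genes, against 34.5% of 27025 promoters of the same length, and TGACG in 6 of 8, against 17.9%. In H2-Aa a pair of TGACG matches on opposite strands overlap, giving the run TGACGTCA. The core of the interferon-stimulated response element was searched only as a pair of GAAA runs 2 bases apart, found in B2m alone (3.04% of promoters). Other forms of this element were not searched, so its absence from the other windows is not shown. H2-K1 and H2-D1 both hold cagtttcacttctgc, with a GAAA run on the opposite strand that the searched pair does not match. GGGANTTCC, a form of the NF-kappaB site, was found in H2-Aa alone (1.42%), and TATAAA in H2-D1, B2m and Psmb8 (13%). The longest inverted repeat around a central base that H2-K1 and H2-D1 share is TGGGGATTCCCCA, which 3 of the 27025 promoters hold (0.0111%), a motif looked for only after the sequences had been read. It covers the place known in class I genes as enhancer A, which NF-kappaB binds, so GGGANTTCC does not take in every NF-kappaB site. Over a local alignment of 188 positions the upstream sequences of H2-K1 and H2-D1 were identical at 166 (88.3%). Psmb9 is read from the opposite strand of nearly the same stretch as Tap1, with annotated starts 226 bases apart. Their CCAAT and TGACG matches are the same bases, counted above for both genes. With H2-K1 and H2-D1 also alike, the 8 windows are not independent of each other. These are matches of letters, not shown binding sites.

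Per kilobase of transcript, the scale on which genes can be set side by side, B2m stood first with a median CPM (scaled read count) per kb of 92.6 over the 12 libraries, and it was above H2-D1 in 12 of 12 libraries. H2-D1 and H2-K1 came next at medians of 14.3 and 13.8 CPM per kb and could not be ordered, since each was the higher one in 6 libraries. Cd74 followed at 2.53, below H2-K1 in all 12 libraries, then H2-Aa at 1.72 and H2-Ab1 at 1.30, each below its neighbour in all 12. At the low end were Psmb9 at 1.20, H2-Eb1 at 1.04, Psmb8 at 0.870 and Tap1 at 0.848 CPM per kb. Here neighbours changed places between libraries: H2-Ab1 was above Psmb9 in 7 of 12, Psmb9 above H2-Eb1 in 7, H2-Eb1 above Psmb8 in 8, and Psmb8 above Tap1 in 10. All further levels are CPM per gene on TMM-scaled library sizes and are compared between libraries only.

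H2-D1, a classical class I heavy chain gene, varied most. It had 24.4, 69.1 and 8.85 CPM in the libraries labelled collagen domain female 1 to 3 and 23.5, 39.6 and 39.9 CPM in collagen domain male 1 to 3. In PBS female 1 to 3 it had 26.6, 38.2 and 11.1 CPM, and in PBS male 1 to 3 it had 25.0, 33.6 and 57.8 CPM. The highest and the lowest library were thus both labelled collagen domain female, 7.80-fold apart, and the treatments overlapped. The coefficient of variation over the 12 libraries was 52.8%, against the 2.61% that counting error alone would give at these depths. By label H2-D1 averaged 34.2 ± 20.6 CPM with collagen domain and 32.1 ± 15.6 CPM with PBS (SD, n = 6 each), a log2 fold change of 0.13 (SE 0.457, edgeR adjusted p = 1).

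H2-K1, the other classical heavy chain, had a lowest, median and highest level of 14.6, 21.9 and 34.0 CPM with collagen domain and 16.8, 22.3 and 26.9 CPM with PBS. Its highest library, collagen domain female 2, and its lowest, labelled collagen domain female 3, were those of H2-D1, but it moved over a 2.33-fold range. It averaged 23.2 ± 6.87 CPM with collagen domain and 22.4 ± 3.40 CPM with PBS (SD, n = 6 each), a log2 fold change of 0.05 (SE 0.183, edgeR adjusted p = 1). The levels of both genes ran together over the 12 libraries (Pearson r of log2 CPM 0.94, a description of libraries that also differ in tissue), yet their ratio did not stay put. H2-D1 had 2.03 reads for each H2-K1 read in collagen domain female 2 and 2.33 in PBS male 3, against 0.608 in the library labelled collagen domain female 3 and 0.660 in PBS female 3. In the other 8 libraries the ratio lay between 1.17 and 1.69. Windows of 75 bases shared exactly with other genes made up 3.10% of H2-K1 and 5.56% of H2-D1, most often with H2-Q10 and H2-Q1, so the counting may have moved reads between class I genes. The windows come from reference transcripts only. The labels give no strain, so reads from alleles that differ from the reference are not covered. With the reads of 18 class I heavy chain genes summed into 1 feature, the treatment difference was 0.04 (SE 0.222, edgeR adjusted p = 1), and 0.21 in the 7 libraries (SE 0.296, edgeR adjusted p = 0.816).

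B2m, the light chain of all class I molecules, moved less between libraries than its heavy chains and followed them in part, with an r of 0.49 with H2-K1 and 0.58 with H2-D1 over the 12 libraries. It had 86.3, 74.6 and 64.9 CPM in the libraries labelled collagen domain female 1 to 3 and 72.5, 71.7 and 101 CPM in collagen domain male 1 to 3. In the PBS libraries it had 96.8, 81.6 and 62.6 CPM in females 1 to 3 and 87.2, 77.8 and 116 CPM in males 1 to 3. PBS male 3 was highest and PBS female 3 lowest, 1.85-fold apart. Collagen domain female 2, first for both heavy chains, lay below the median of 79.7 CPM. B2m averaged 78.4 ± 12.9 CPM with collagen domain and 87.0 ± 18.2 CPM with PBS (SD, n = 6 each), a log2 fold change of -0.15 (SE 0.135, edgeR adjusted p = 1), the most negative of the 10.

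**Figure D1:**
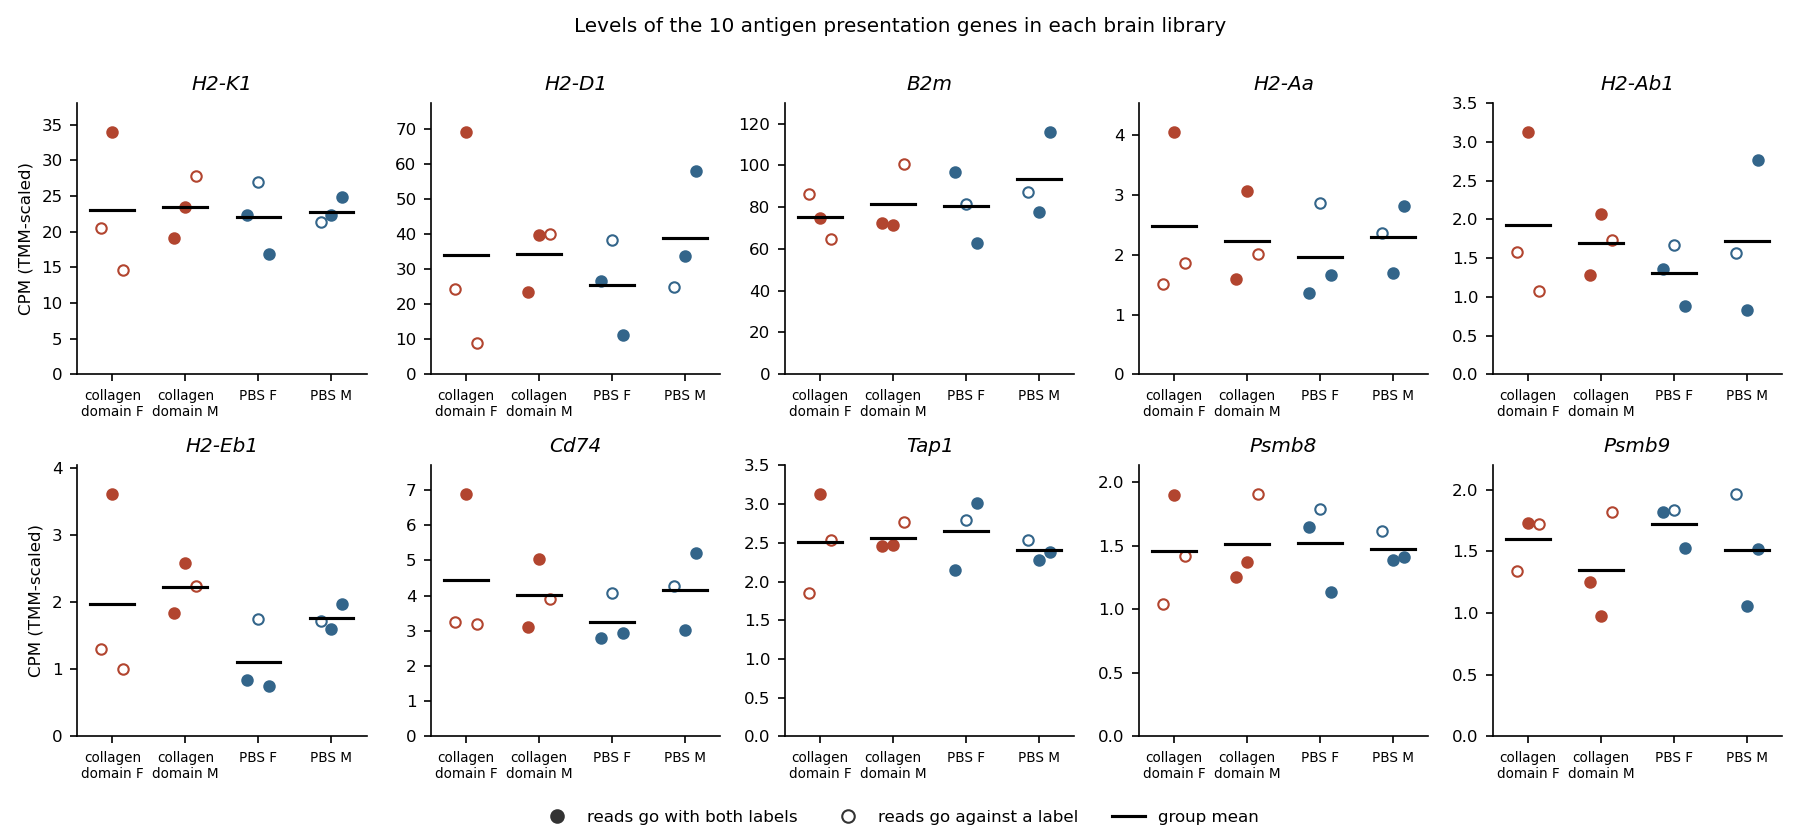
Level in CPM on TMM-scaled library sizes (vertical axis, from 0) of each of the 10 genes in the 4 labelled groups of 3 libraries (horizontal axis), 1 point per library, with a line at each group mean and open points where reads went against a label. Collagen domain female 2 is the highest point for 7 of the 10 genes, and the treatments overlap for every gene.

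Among the class II genes, H2-Eb1, a beta chain gene, had the largest treatment difference by label. It had 1.30, 3.61 and 1.001 CPM in the libraries labelled collagen domain female 1 to 3 and 1.84, 2.59 and 2.24 CPM in collagen domain male 1 to 3. In PBS female 1 to 3 it had 0.835, 1.75 and 0.755 CPM, and in PBS male 1 to 3 it had 1.72, 1.60 and 1.96 CPM. Collagen domain female 2 was highest, collagen domain male 2 next, and 2 PBS females lowest, and the treatments overlapped. H2-Eb1 averaged 2.10 ± 0.942 CPM with collagen domain and 1.44 ± 0.512 CPM with PBS (SD, n = 6 each). The log2 fold change of 0.58 (SE 0.310) did not pass (edgeR adjusted p = 1, unadjusted p = 0.0865).

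H2-Aa, the alpha chain gene that pairs with H2-Ab1, had a lowest, median and highest level of 1.51, 1.94 and 4.06 CPM with collagen domain and 1.36, 2.03 and 2.87 CPM with PBS, a log2 fold change of 0.15 (SE 0.280, edgeR adjusted p = 1). H2-Ab1 had 1.07, 1.65 and 3.13 CPM with collagen domain and 0.824, 1.46 and 2.77 CPM with PBS, a log2 fold change of 0.28 (SE 0.325, edgeR adjusted p = 1). For both genes the ranges overlapped and collagen domain female 2 was highest. H2-Ab1 rested on as few as 35 reads, in PBS male 2. Its coefficient of variation between libraries was 42.5%, against 11.7% from counting alone.

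Cd74, the invariant chain that guides class II molecules to the compartment where they take up peptide, had 3.24, 6.89 and 3.19 CPM in the libraries labelled collagen domain female 1 to 3 and 3.12, 5.03 and 3.90 CPM in collagen domain male 1 to 3. It had 2.80, 4.06 and 2.92 CPM in PBS female 1 to 3 and 4.29, 3.01 and 5.21 CPM in PBS male 1 to 3. Collagen domain female 2 was highest, followed by PBS male 3 and then collagen domain male 2, all of them libraries with many Gabra6 reads. The mean was 4.23 ± 1.49 CPM with collagen domain and 3.71 ± 0.962 CPM with PBS (SD, n = 6 each), a log2 fold change of 0.20 (SE 0.228, edgeR adjusted p = 1).

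Over the 12 libraries Cd74 ran with H2-Aa (r = 0.95), H2-Ab1 (0.90) and H2-Eb1 (0.84), while B2m ran with Cd74 at 0.21, H2-Aa at 0.05, H2-Eb1 at 0.19 and H2-Ab1 at 0.47. These are descriptions of 12 libraries that share differences in tissue. Summed, Cd74 and the 3 class II chains stood at 17.7 CPM in collagen domain female 2 and at 12.8 CPM in both collagen domain male 2 and PBS male 3. The other 9 libraries lay between 6.23 and 10.3 CPM. Of the 5 libraries with many Gabra6 reads, PBS female 3 held the lowest sum of all 12. With the mean level of cerebellum and hindbrain genes as a covariate, the treatment differences stood at 0.32 for Cd74 (SE 0.144), 0.31 for H2-Aa (SE 0.162), 0.44 for H2-Ab1 (SE 0.254) and 0.70 for H2-Eb1 (SE 0.241), each at an edgeR adjusted p of 0.747.

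**Figure D2:**
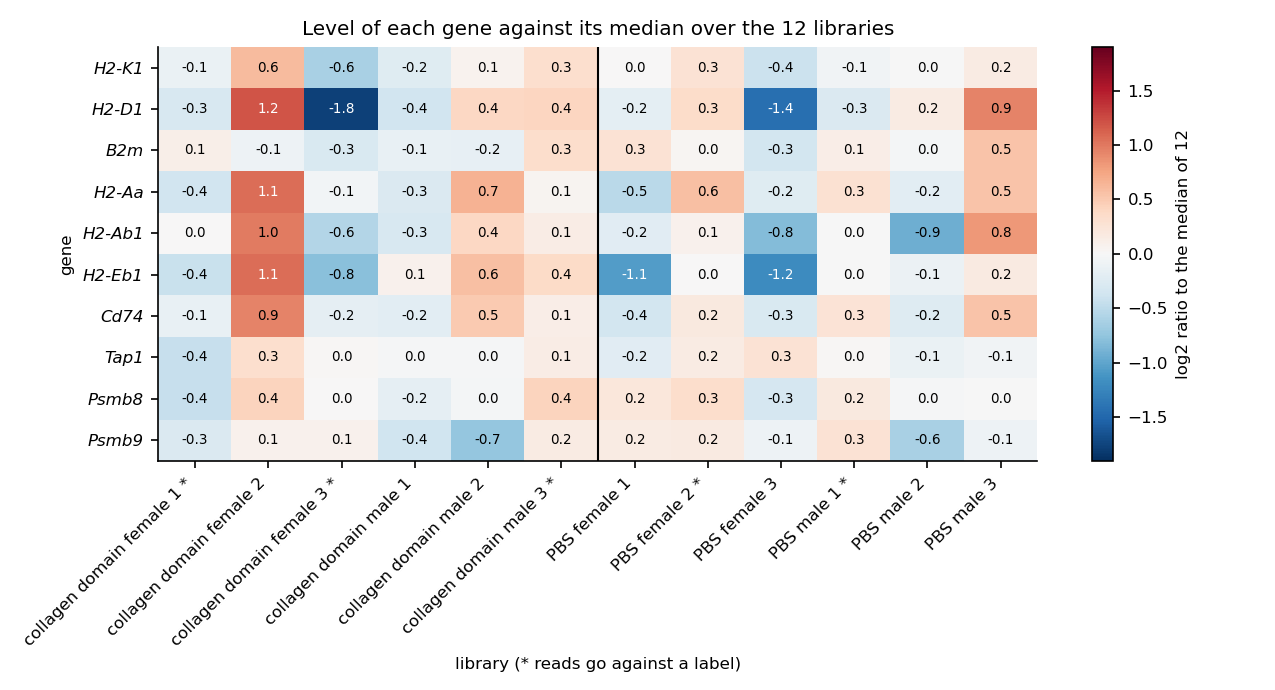
Log2 ratio of each gene's CPM (rows) in each library (columns, collagen domain left of the line and PBS right of it) to that gene's median over the 12 libraries, red above and blue below it, with asterisks on libraries whose reads went against a label. H2-D1 spans the widest range, and the class II genes and Cd74 share their highest column, collagen domain female 2, where B2m lies below its median.

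Tap1, Psmb8 and Psmb9 supply peptide to class I molecules. Tap1 varied least of the 10 genes and had a lowest, median and highest level of 1.85, 2.50 and 3.13 CPM with collagen domain and 2.15, 2.46 and 3.02 CPM with PBS, a log2 fold change of 0.01 (SE 0.133, edgeR adjusted p = 1). Its coefficient of variation between libraries of 14.2% stood beside 9.38% from counting alone, the smallest gap of the 10 genes. Psmb8 had 1.04, 1.40 and 1.91 CPM with collagen domain and 1.13, 1.51 and 1.79 CPM with PBS, a log2 fold change of -0.01 (SE 0.174). Psmb9 had 0.979, 1.53 and 1.82 CPM with collagen domain and 1.06, 1.67 and 1.97 CPM with PBS, a log2 fold change of -0.14 (SE 0.178), with both edgeR adjusted p at 1. The library kit keeps no strand, and in the annotation Tap1 and Psmb9 overlap by 212 bases and Psmb8 and the predicted gene Gm20496 by 186 bases on opposite strands, so reads there cannot be assigned to 1 gene of the pair.

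Taking the 10 genes as 1 list, 0 passed for treatment in both sexes by label, where 0 of the 19145 genes tested passed (0%, edgeR adjusted p under 0.05) and 354 had an unadjusted p under 0.05 (1.85%), none of them among the 10. DESeq2 and limma-voom also called 0. Of the 10 values 7 lay above 0 and 3 below, with a median of 0.09 against 0.00 for all genes. No gene of the 10 separated the treatments without overlap, as 13 of the 19145 did (0.0679%). Two-sided exact permutation tests within sexes, 1 per gene over 400 arrangements of the 12 libraries with a smallest possible p of 0.005, gave unadjusted p from 0.16 for H2-Eb1 to 1 for Tap1.

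In the 7 libraries whose reads went with both labels, 0 of the 10 passed, where 2 of 19661 genes did (0.0102%), and 8 of 10 values lay above 0 with a median of 0.35. These 7 were selected on C1qtnf3, Xist and Ddx3y. A treatment call on C1qtnf3 or a sex call on Xist or Ddx3y would follow from that selection. H2-Eb1 averaged 2.68 ± 0.886 CPM with collagen domain (SD, n = 3) and 1.29 ± 0.589 CPM with PBS (SD, n = 4), a log2 fold change of 1.08 (SE 0.387, edgeR adjusted p = 0.681, unadjusted p = 0.0253). Its ranges still overlapped, at 1.84 to 3.61 CPM with collagen domain and 0.755 to 1.96 CPM with PBS. H2-Aa stood at 0.61 (SE 0.374), H2-Ab1 at 0.56 (SE 0.501), Cd74 at 0.51 (SE 0.333), H2-D1 at 0.48 (SE 0.573) and H2-K1 at 0.23 (SE 0.216), while B2m stood at -0.31 (SE 0.201), with edgeR adjusted p from 0.681 to 0.786 for these 6. None of the 10 separated the treatments there, as 6.3% of all genes did, and 1 (H2-Eb1) had an unadjusted p under 0.05, as did 5.79% of all genes. Tissue also differed among these 7. All 16 cerebellum and hindbrain markers tested lay above 0, with a median of 0.79, against 1 of 16 by label. None of the 16 passed, and they vary together with the tissue taken, so they are not 16 separate results. The list's sums overlapped, at 800, 164 and 944 CPM in collagen domain female 2, male 1 and male 2. In PBS female 1, female 3, male 2 and male 3 they were 210, 510, 175 and 845 CPM. Of 13 microglia markers 1 lay above 0, with a median of -0.19. With the mean level of the cerebellum and hindbrain markers as a covariate in the 7, a setting added after the data were seen, H2-Eb1 stood at 0.94 (SE 0.375), H2-Aa at 0.40 (SE 0.255), Cd74 at 0.34 (SE 0.245), H2-Ab1 at 0.37 (SE 0.431) and H2-D1 at 0.25 (SE 0.578), with edgeR adjusted p from 0.666 to 0.877.

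Collagen domain female 2 carried much of this. Without it, the treatment difference over the other 11 libraries turned to -0.12 for H2-K1, -0.36 for H2-D1, -0.12 for H2-Aa and -0.04 for Cd74, and dropped to 0.00 for H2-Ab1 and 0.22 for H2-Eb1. Without it among the 7, H2-D1 turned to -0.56, H2-K1 to -0.17, H2-Ab1 to -0.12 and Cd74 to -0.03, and H2-Eb1 stood at 0.29.

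**Figure D3:**
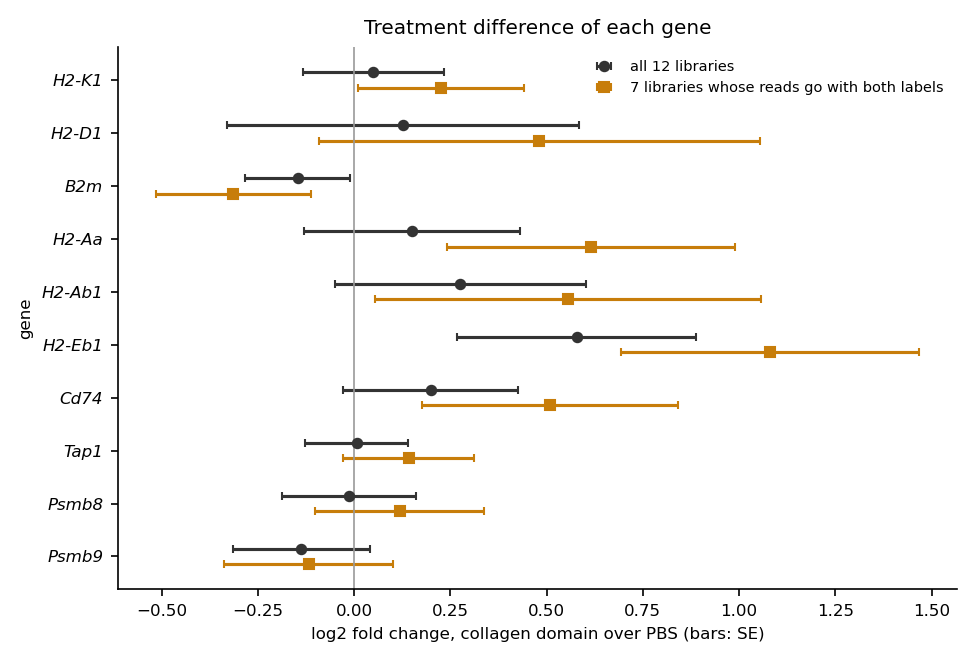
Log2 fold change of collagen domain over PBS (horizontal axis, bars are SE) for each of the 10 genes (vertical axis), in all 12 libraries by label (circles) and in the 7 libraries whose reads went with both labels (squares). H2-Eb1 lies farthest to the right in both, at 0.58 and 1.08, and B2m farthest to the left, at -0.15 and -0.31.

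Between libraries labelled female, the treatment difference lay above 0 for 6 of the 10 genes with a median of 0.20, and between those labelled male for 4 of 10 with a median of -0.03, where 0 of 19145 genes passed in either sex (0%; 280 in females and 325 in males at an unadjusted p under 0.05, and 0 and 3 called by DESeq2). H2-Eb1 stood at 0.83 in females (SE 0.451) and 0.34 in males (SE 0.443). The difference between the sexes in treatment effect, male minus female, had a median of -0.24 over the 10 genes, from -0.61 for H2-D1 (SE 0.924) to 0.18 for Tap1 (SE 0.274), with an edgeR adjusted p of 1 for each and 0 of 19145 genes called (0%; 263 at an unadjusted p under 0.05, 1 called by DESeq2). In the 7 libraries that difference lay below 0 for all 10 genes, with a median of -1.12, an edgeR adjusted p of 1 for each and 0 of 19661 genes called (0%; 203 at an unadjusted p under 0.05, 4 of the 10 among them). Among the 7 libraries the female comparison set collagen domain female 2 alone against 2 PBS libraries, with H2-Eb1 at 2.17 and H2-D1 at 1.86. A single library has no spread of its own, so these are effect sizes only. The interaction in the 7 rests on the same library. In males of the 7 libraries, H2-Eb1 stood at 0.29 (SE 0.281) and H2-D1 at -0.56 (SE 0.478) in the 2 collagen domain males against 2 PBS males, where 0.00509% of genes passed. Male against female, 8 of the 10 genes lay above 0 by label, from -0.21 for Psmb9 (SE 0.178) to 0.41 for H2-Eb1 (SE 0.310), and 3 of 10 did in the 7 libraries. None passed in either, where 0% of genes passed by label (377 at an unadjusted p under 0.05, 8 called by DESeq2) and 0.0407% in the 7.

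The rest of the pathway was read through lists of known genes, by label first and then in the 7 libraries. Of other class I heavy chains 0 of 18 tested passed, with 10 above 0 and a median of 0.02. Their smallest p values belonged to H2-Q2 at 0.65 (SE 0.321), H2-Q1 at -0.25 (SE 0.195), Mr1, which presents vitamin metabolites, at 0.12 (SE 0.0968) and Hfe, a regulator of iron uptake, at -0.18 (SE 0.159). H2-Q2 stood at 0.64 in the 7 (SE 0.335), H2-Q1 turned to 0.01 (SE 0.293), and the list's median was 0.05. In peptide supply and loading of class I, 0 of 16 passed, with 5 above 0 and a median of -0.04, among them the third interferon-inducible proteasome subunit Psmb10 at -0.10 (SE 0.106) and the proteasome activator Psme1 at -0.07 (SE 0.0662). The list's median was 0.03 in the 7, where Psmb10 stood at -0.32 (SE 0.159) and Psme1 at -0.17 (SE 0.114). Of the other class II chains and loading factors 0 of 14 passed, with 5 above 0 and a median of -0.05, including H2-DMa, which exchanges peptides on class II, at -0.06 (SE 0.0853) and the peptide-editing inhibitor chain H2-Ob at -0.21 (SE 0.173). Among the 7 the list's median was -0.09, H2-DMa stood at -0.20 (SE 0.132) and H2-Ob at -0.37 (SE 0.299). All edgeR adjusted p in these lists were 1 by label, and none passed in the 7.

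Regulators had 0 of 19 past the test, with 8 above 0 and a median of -0.01. Nfya, a subunit of NF-Y, stood at 0.13 by label (SE 0.0546) and 0.18 in the 7 libraries (SE 0.0894). Nlrc5, the class I coactivator, ranged from 0.626 to 1.27 CPM over the 12 libraries and was highest in collagen domain female 2. In PBS male 3, where H2-D1 was second highest, Nlrc5 stood at 0.654 CPM. Ciita, its class II counterpart, ranged from 0.208 to 0.659 CPM, on 9 to 29 reads. Ciita was highest in PBS male 2, where H2-Ab1 was lowest, and lowest in PBS female 3, where H2-Eb1 was lowest. It had 9 reads in PBS male 3, where H2-Ab1 was second highest. In collagen domain female 2, where H2-Ab1 was highest, it had 26. Ifng, the gene of interferon gamma, had at most 1 read in any library. Interferon-stimulated genes had 0 of 27 past the test, with 10 above 0 and a median of -0.05, including Isg15, a ubiquitin-like modifier, at -0.38 (SE 0.161) and Oas2, a sensor of double-stranded RNA, at 0.52 (SE 0.340). Isg15 in the 7 stood at -0.45 (SE 0.259) and Oas2 at 1.36 (SE 0.355, edgeR adjusted p = 0.681), and the list's median was -0.04. Of 7 costimulation genes 0 passed, with 3 above 0 and a median of -0.02. Icam1, an adhesion molecule of antigen-presenting cells, stood at 0.34 (SE 0.193), Cd40, the receptor through which T cells activate antigen-presenting cells, at -0.41 (SE 0.249) and Cd80, a ligand of the T cell receptor CD28, at 0.44 (SE 0.289). Icam1 stood at 0.60 (SE 0.249), Cd40 at -0.58 (SE 0.304) and Cd80 at 0.72 (SE 0.448) in the 7 libraries, with 4 of 7 genes above 0.

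**Figure D4:**
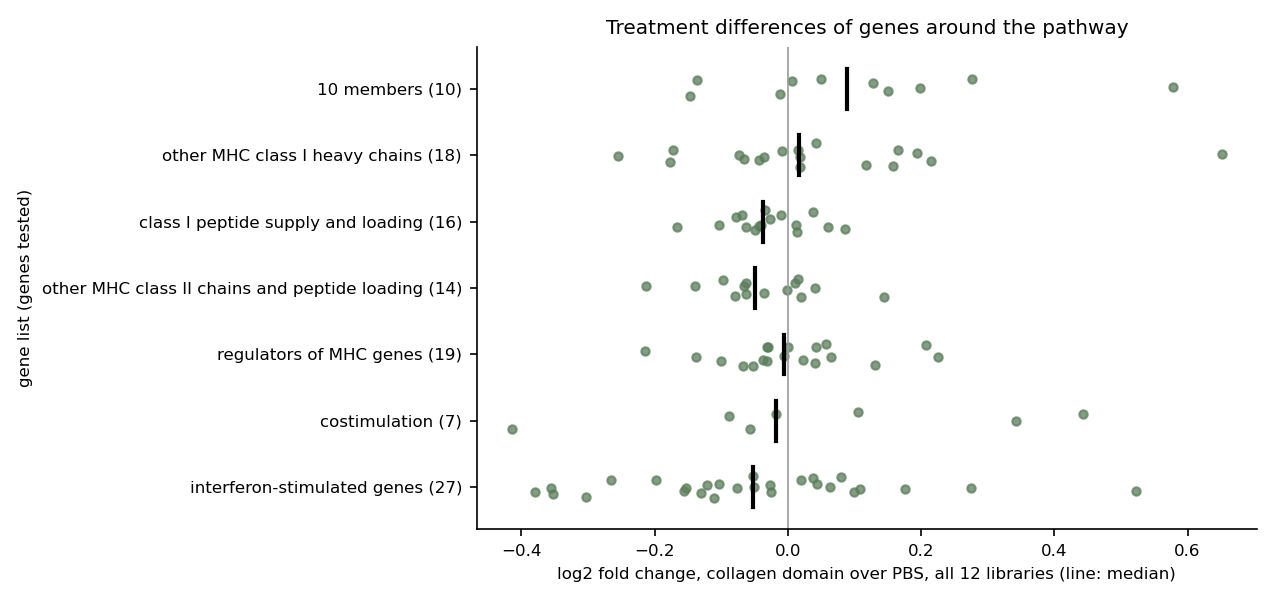
Log2 fold change of collagen domain over PBS in all 12 libraries by label (horizontal axis) for the genes tested in each list (vertical axis, number in brackets), 1 point per gene with a line at the list's median. The medians lie between -0.05 and 0.09, and no gene passed the test.

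Markers of the cells that could carry these genes were read beside them. Of 11 T cell markers, 5 (Cd3e, Cd3d, Cd3g, Cd8a and Cd8b1) had a median of 1 read or less over the libraries, while Trbc2 had 219 to 672 reads, Cd4 249 to 408, Trbc1 47 to 151, Lck 49 to 71 and Trac 6 to 36. The T cell list summed to 14.2 to 25.4 CPM with collagen domain and 13.9 to 26.4 CPM with PBS. Among B cell markers Ms4a1 had at most 6 reads, while Ighm had 558 to 1204 and Jchain 11 to 73, and the list summed to 15.1 to 24.7 CPM with collagen domain and 15.6 to 27.8 CPM with PBS. Dendritic cell markers summed to 32.3 to 49.3 CPM with collagen domain and 33.5 to 52.2 CPM with PBS, with Xcr1, a marker of their cross-presenting type, at a median of 0. Their 3 highest sums, 49.3 CPM in collagen domain male 2, 45.6 CPM in collagen domain female 2 and 52.2 CPM in PBS male 3, were in the 3 libraries with the highest class II sum. The next sums, 42.9 CPM in PBS female 3 and 41.8 CPM in PBS female 2, were also in libraries with many Gabra6 reads. Libraries with few such reads held at most 37.2 CPM. Cd24a, Zbtb46 and Flt3 had the highest medians, at 15.8, 11.3 and 6.84 CPM. The other markers of the list reached at most 1.19 CPM (Batf3 in PBS female 1), so these 3 genes make up most of the sums. Flt3 and Zbtb46 were highest in collagen domain male 2 and Cd24a in PBS male 3. Cd209a was lowest in collagen domain female 2 and Batf3 in collagen domain male 2. Border macrophage markers summed to 18.3 to 24.5 CPM with collagen domain and 18.1 to 25.3 CPM with PBS. In collagen domain female 2, first in class II, they stood at 19.7 CPM. Microglia markers summed to 341 to 432 CPM with collagen domain and 360 to 530 CPM with PBS, lowest of all in collagen domain female 2 and highest in PBS male 3. PBS male 3, which led for B2m and came second for H2-D1, H2-Ab1 and Cd74, also led the activated microglia markers, at 1470 CPM summed against at most 1328 CPM elsewhere, and Cathepsin S (Ctss), a protease that trims the invariant chain, at 117 CPM. Monocyte markers summed to 30.0 to 62.2 CPM with collagen domain and 32.8 to 48.3 CPM with PBS, highest in collagen domain male 2, the library with the second highest H2-Eb1 and H2-Aa. S100a8 and S100a9, which neutrophils also express, made up 7.57 and 10.8 CPM of that sum, and without them it stood at 43.9 CPM, below the 47.9 CPM of PBS female 3. By label 4 of the 6 monocyte markers tested lay above 0, with a median treatment difference of 0.63. None passed, and 2 had an edgeR unadjusted p under 0.05, as did 1.85% of all genes. In the 7 libraries 6 of 7 lay above 0, with a median of 0.98, and none passed. The part of these cells in the levels of the 10 genes was not tested.

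A last class II gene split the libraries by presence of reads. H2-Ea-ps, the alpha chain partner of H2-Eb1, is known to be silent in mice of the b haplotype, such as C57BL/6, and expressed in several others. It had 27, 0 and 29 reads in the libraries labelled collagen domain female 1 to 3 and 7, 29 and 0 in collagen domain male 1 to 3. In PBS female 1 to 3 it had 36, 25 and 29 reads, and in PBS male 1 to 3 it had 28, 1 and 0. The libraries with 0 or 1 read were thus collagen domain female 2 and male 3 and PBS male 2 and male 3, with 2 of each treatment. H2-D1 reads per H2-K1 read were 2.03, 1.44, 1.51 and 2.33 in these 4 and 0.608 to 1.69 in the other 8. H2-Ea-ps was singled out after its values were seen, no strain is given by the labels, and its part in the levels of the other genes was not tested.

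**Figure D5:**
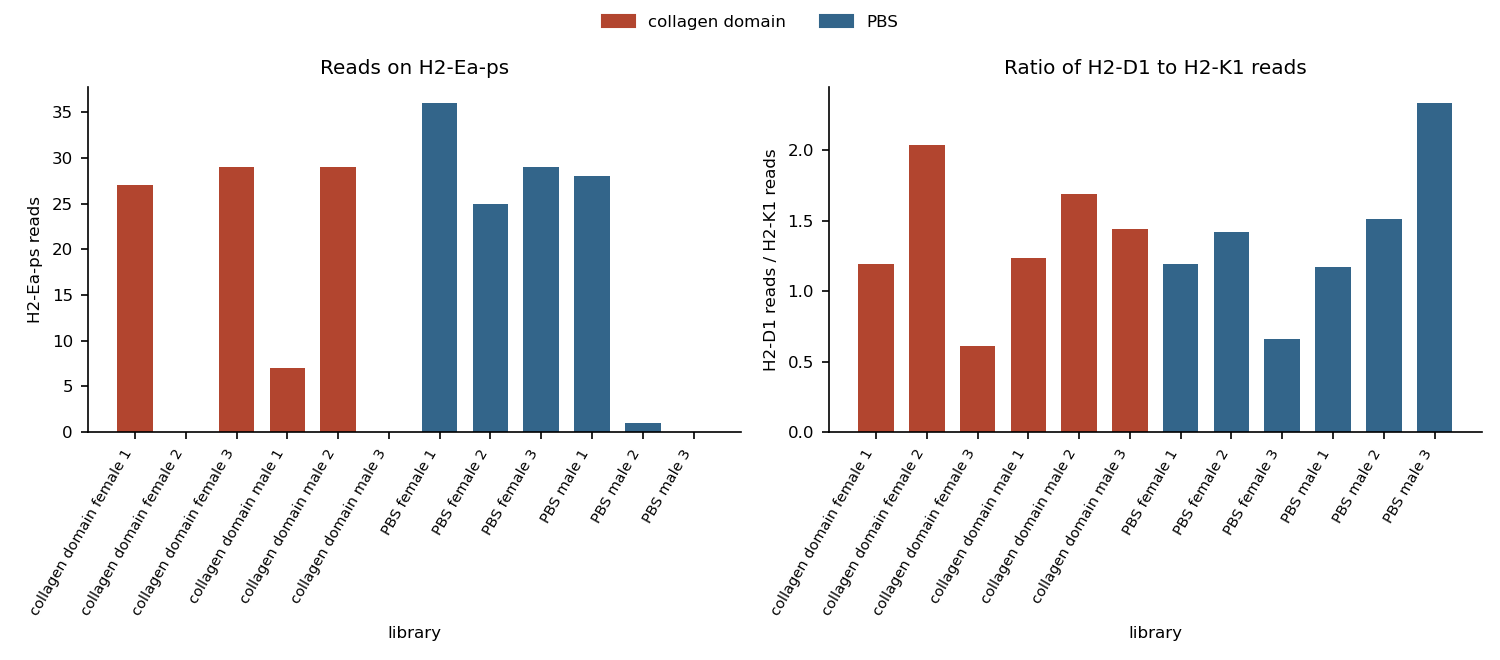
Reads on H2-Ea-ps (left) and H2-D1 reads per H2-K1 read (right) in each library (horizontal axis), collagen domain in red and PBS in blue. H2-Ea-ps has 0 or 1 read in 4 libraries, 2 of each treatment, and 7 to 36 in the other 8, and the ratio runs from 0.608 to 2.33.

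For Cd74 and B2m the genes with the most similar profile were listed by Pearson r of log2 CPM over the 12 libraries, as a description. Cd74 was closest to Snx21 (0.93), Stk32a (0.90), Snai1 (0.89), Chac1 (0.89) and Clic1 (0.89), and 4 of these 5 were, like Cd74, highest in collagen domain female 2. B2m was closest to Ufsp2 (0.94), Atp5s (0.92), Brix1 (0.91), Gm6123 (0.91) and Mrps11 (0.91), all highest in PBS male 3. In the 7 libraries with few Gabra6 reads the r of these genes ranged from 0.62 for Clic1 to 0.88 for Snx21 with Cd74, and from 0.83 for Atp5s to 0.90 for Ufsp2 with B2m.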

How the data were processed

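Polyadenylated RNA was read as pairs of 75 bp from a kit without strand (TruSeq version 2), per the labels' protocols. The authors deposited whole-number counts of reads per Ensembl gene ID. STAR, DESeq2 and GRCm39 are named per the submitters' processing notes, and the annotation and counting tool are not given in the sources used here. Symbols came from GENCODE M21 and matched 42462 of 43629 IDs. The other 1167, with 0.144% of reads, stayed in the fits under their IDs.

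Counts were tested with edgeR 4.0.16 in R 4.3.3 (TMM, filterByExpr on 4 groups, robust quasi-likelihood F-test, two-sided p with Benjamini-Hochberg adjustment over all genes tested, threshold 0.05; common biological coefficient of variation 0.178). An additive fit of sex and treatment gave the treatment difference over both sexes and the sex difference, and a fit of the 4 groups gave the differences within a sex and their interaction. P-values measure the spread between libraries, which may be technical. A library went against its treatment label with under 1000 C1qtnf3 reads (collagen domain) or 1000 or more (PBS), and against its sex label where Ddx3y exceeded Xist in a female library or Xist exceeded Ddx3y in a male one. Correlations used a prior count of 2, and permutation tests log2(CPM + 1). Promoters are RefSeq sequences of GRCm38.p6, aligned locally with Biopython 1.88, and no coordinates of the deposited build are given. Transcript lengths are those of the longest coding transcript in GENCODE M21. Figures were drawn with matplotlib 3.10.9. Alternatives were DESeq2 1.42.0, limma-voom 3.58.1, other scaling and filters, a replicate block, a hindbrain covariate and left-out libraries. The fits were also run on simulated data with the same spread for every gene, no library against its label and no tissue differences. Those runs do not cover such conditions.

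The 10 genes and all lists were chosen with earlier results of these data known. Named genes are the 10 in every library, up to 4 members of smallest p from each list described (some are not reported here), and the 5 genes most like Cd74 and B2m. Nlrc5, Ciita, Ifng, Ctss and the single dendritic cell markers were named after their values were seen. Deviations of same-numbered collagen domain and PBS libraries correlated at r from -0.38 to 0.44, those of same-numbered male and female libraries at 0.30 to 0.57 with collagen domain and -0.12 to -0.02 with PBS. Since not every pair was over 0.1, numbers were not taken as pairs.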

Additional observations from a re-analysis of the deposited data

How the results depend on the processing

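None of the 10 genes passed the test under any of the alternatives run, with a smallest adjusted p of 0.340 (B2m, 7 libraries without collagen domain female 2). Of 232 alternative values of the treatment difference 25 changed sign, as did 30 of 220 between the sexes and 7 of 80 in the 7 libraries. The count of genes called among all tested stayed 0 for treatment in both sexes except without the 4 libraries against their treatment label or the 5 against either (2 each). In females it was 1 in each of these cases. In males it was 1 in each, 3 with DESeq2 and 0 to 1 with 1 library left out. DESeq2 called 1 gene in the interaction. Between the sexes DESeq2 called 8, the fits without the 4 and the 5 called 1 and 8, and with 1 library left out 0 to 5 were called. In the 7 libraries 1 to 2 were called with 1 more left out and 1 with the hindbrain covariate. Replicate numbers were not taken as pairs, and a replicate block left every count at 0.

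The treatment difference of Tap1 turned to -0.0047 with limma-voom and -0.00022 with the replicate block, that of Psmb8 to 0.0054 with the hindbrain covariate, 0.24 without the 4 and 0.12 without the 5, and that of Psmb9 to 0.064 without the 4. Male against female turned without the 4 and the 5 to -0.097 and -0.12 for H2-K1, -0.10 and -0.0068 for H2-Aa, -0.068 and -0.00048 for H2-Ab1, -0.084 and -0.016 for Cd74, and -0.14 and -0.21 for Psmb8, which also stood at -0.0028 with no filter. With 1 library left out, treatment differences ranged for H2-K1 from -0.12 to 0.16, H2-D1 from -0.36 to 0.34, H2-Aa from -0.12 to 0.29, Cd74 from -0.037 to 0.31, Tap1 from -0.068 to 0.095 and Psmb8 from -0.11 to 0.078. In the 7 libraries they ranged for H2-K1 from -0.17 to 0.39, H2-D1 from -0.56 to 0.94, H2-Ab1 from -0.12 to 1.26, Cd74 from -0.032 to 0.85, Psmb8 from -0.11 to 0.21 and Psmb9 from -0.23 to 0.052. Male against female ranged for H2-K1 from -0.067 to 0.21, H2-Aa from -0.073 to 0.30, H2-Ab1 from -0.16 to 0.38, Cd74 from -0.0063 to 0.34, Tap1 from -0.14 to 0.017 and Psmb8 from -0.092 to 0.10. The cause of these turns was not tested. Depth limits Psmb8, Psmb9 and H2-Ab1 most, where counting alone gives a coefficient of variation of 11.7 to 12.2%.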

Other observations

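H2-Bl, a class I heavy chain gene, ran unlike H2-D1 between libraries. It had 1.69, 0.691 and 1.75 CPM in the libraries labelled collagen domain female 1 to 3 and 1.23, 3.15 and 0.665 CPM in collagen domain male 1 to 3. In PBS female 1 to 3 it had 1.06, 2.44 and 3.81 CPM, and in PBS male 1 to 3 it had 1.52, 0.659 and 0.523 CPM. The 4 libraries with 0 or 1 read on H2-Ea-ps held its 4 lowest levels, 0.523 to 0.691 CPM, while the other 8 held 1.06 to 3.81 CPM. H2-Q6, another class I gene, ranged from 0.226 CPM in PBS female 3 to 1.71 CPM in collagen domain female 2. H2-DMb1, a chain of the class II peptide exchanger, ranged from 0.605 CPM in the library labelled collagen domain female 3 to 2.35 CPM in PBS male 3 and 2.33 CPM in collagen domain female 2. These genes were picked after their values were seen, near-identical class I copies can take each other's reads, and none of them passed the treatment test.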
